A study of Mus musculus with 8 samples.

Results

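The expression of 10 genes that mark the bone-forming osteoblast and the osteocyte, the cell that an osteoblast becomes once it is buried in bone, was followed in the cochlea of miR-29a KO mice. They were picked by symbol, and they make up 10 of the 21895 genes in the deposited expression table. By role they comprise the transcription factors Runx2 and Sp7, the mineralizing enzyme Alpl, the matrix proteins Bglap, Bglap2, Ibsp and Spp1, and the osteocyte proteins Dmp1, Phex and Mepe. The cochlea lies in a capsule of dense bone, the otic capsule, which is remodelled far less than other bones. Runx2 commits cells to the bone lineage and Sp7 acts after it. Osteoblasts then lay down a matrix of collagen I with osteocalcin, bone sialoprotein and osteopontin, Alpl frees the phosphate that mineral needs, and osteocytes make Dmp1, Phex and Mepe, which act on mineral and on phosphate balance.

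Total RNA of the cochlea was sequenced after removal of ribosomal RNA in 4 WT libraries, WT1 to WT4, and 4 miR-29a KO libraries, KO1 to KO4. The study asked how loss of the microRNA miR-29a alters the cochlea. The KO mice were homozygous for a germline deletion of miR-29a (miR-29a-/-), which removes it from all cells and not from the ear alone, and the WT mice (miR-29a+/+) came from the same crosses of heterozygous parents. Both groups shared the C57BL/6 background, and mice of both sexes were used. The sample records give an age of 21 days for every library, whereas the study's methods give an older age, and the record of the tissue names only the cochlea, so that nothing states how much capsule bone or marrow each piece held. Whether each library came from a separate animal is not stated, so p-values measure the spread between these libraries, which may be technical. The level of the deleted miR-29a itself was not analysed here, and the genotype labels were therefore not checked against it. Levels are FPKM, the fragments per kilobase of transcript scaled to the mapped fragments, which carry no counts, so that their counting error is unknown. The relative depth estimated from low values was 0.952 to 1.17 of the median library. Markers of hair cells and of the cochlear epithelium and lateral wall were detected in all 8 libraries, with summed FPKM of at least 27.1 and 1619.

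The guide strand of the deleted gene and its close relatives are shown because they share the bases that pair with targets. In the mature sequences from RefSeq (GRCm38.p6), capitals mark the seed, bases 2 to 8, which was the same in all 3.
miR-29a-3p: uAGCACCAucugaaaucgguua
miR-29b-3p: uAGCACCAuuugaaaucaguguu
miR-29c-3p: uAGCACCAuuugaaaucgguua
The miR-29a-3p sequence lies at chr6:31062673-31062694 on the minus strand. The complement of the seed, TGGTGCT, was sought in the longest annotated protein-coding 3′-UTR of each gene (GENCODE mouse release 21, GRCm38), on the transcribed strand only. It was present in 2 of the 10 genes, Ibsp and Dmp1, or 20% of them, and in 2294 of 14832 expressed genes with a 3′-UTR, or 15.5%. Both sites are in the 3′-UTR, and the bases around them are shown with the match in capitals.
Ibsp: tttatagtgtggaaTGGTGCTa
Dmp1: gggggagggggtggTGGTGCTt
The Ibsp stretch covers chr5:104310684-104310705 and the match takes bases 125 to 131 of a 3′-UTR of 896 bases. The Dmp1 stretch covers chr5:104213332-104213353 and the match takes bases 375 to 381 of 1131. Only the Ibsp match is followed by an A. A match in these letters is a description of the sequence and does not show that miR-29a binds there.

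The WT libraries differed widely among themselves. For the 10 genes, WT1 and WT3 stood apart at opposite ends. WT3 was the lowest of all 8 libraries for 9 of the 10 genes, Spp1 being the exception, and for 19.7% of all tested genes. WT1 was the highest of the WT libraries for 9 of the 10, Sp7 being the exception, and for 21.9% of all tested genes. WT2 and WT4 lay within 1.2-fold of each other for all 10 genes, as they did for 65.7% of all tested genes. The highest WT value was at least 4 times the lowest for 7 of the 10 genes, against 17.3% of all tested genes. Among the KO libraries such a 4-fold range was seen for Mepe only, and for 3.40% of all tested genes. The SD of the log2 values was larger in WT than in KO for all 10 genes and for 77.7% of all tested genes.

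Across the 10 genes the KO libraries were on average higher, but none of the 10 genes passed the test. The limma linear model on log2(FPKM + 0.1) gave a positive log2 fold change for all 10 and for 9962 of the 14990 tested genes. The 10 ran from 0.29 for Runx2 to 2.01 for Mepe, with a median of 0.75, while the median over all tested genes was 0.10. Of the 10 genes, 0 were higher and 0 were lower at an unadjusted p under 0.05, the call used by the study. Among all tested genes, 4.61% were called higher and 0.507% lower by the same rule, and after Benjamini-Hochberg adjustment 0% were called. None of the 10 had every KO library above every WT library, a pattern shown by 3.02% of all tested genes. Every KO library was above WT2, WT3 and WT4 for Bglap, Ibsp, Spp1, Phex and Mepe, or 5 of the 10 genes, a comparison made after the values were seen and met by 11.2% of all tested genes. Per length, the KO means ran from 1353 for Spp1, through 98.8, 95.2 and 84.3 for Ibsp, Bglap and Bglap2, which lay within an SD of each other, to 9.44 for Sp7. In whole tissue, a change in the number of cells of a type and a change in RNA per cell cannot be told apart.

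**Figure D1:**
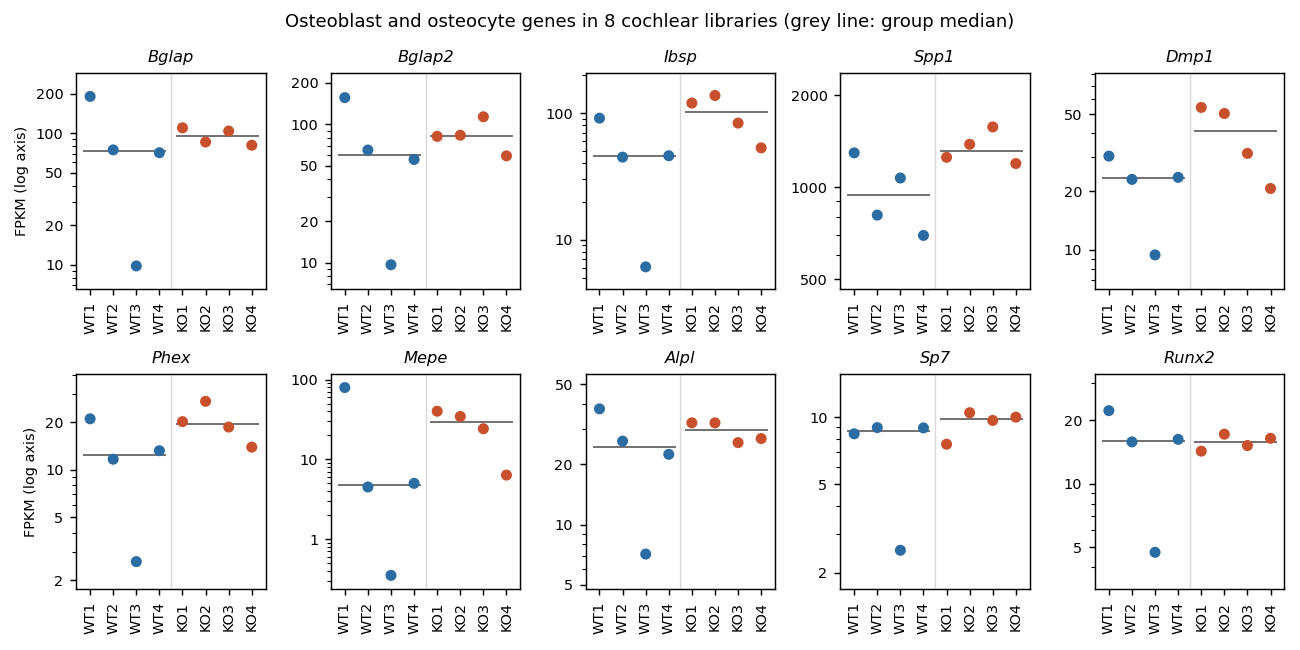
FPKM of each of the 10 osteoblast and osteocyte genes (log axis) in the 4 WT libraries (blue) and the 4 KO libraries (red), with a grey line at each group's median. WT3 is the lowest point in every panel but Spp1, and the KO points span less than the WT points in every panel on the log scale.

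Runx2, the factor that starts the osteoblast programme, has a deposited position of chr17:44495987-45119283 on the minus strand (GRCm38 for all gene positions). That span differs from the one in GENCODE mouse release 21, and how this affects the FPKM of Runx2 is not known. Its FPKM was 22.2, 15.8, 4.72 and 16.2 in WT1 to WT4 and 14.3, 17.2, 15.2 and 16.4 in KO1 to KO4. WT1 was the highest and WT3 the lowest of the 8, and the KO libraries lay close to WT2 and WT4. The means were 14.7 ± 7.29 in WT and 15.8 ± 1.29 in KO (SD, n = 4 each). The log2 fold change of 0.29 (SE 0.42) was the smallest of the 10 genes (limma adjusted p = 0.977, exact permutation p = 0.8286).

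Sp7, also called osterix, is required after Runx2 for osteoblasts to mature (chr15:102356606-102367182, minus strand). Its FPKM was 8.43, 8.99, 2.52 and 8.96 in WT1 to WT4 and 7.57, 10.5, 9.68 and 10.02 in KO1 to KO4. WT3 stood below the other 7 libraries, which were within a narrow range, and KO1 was the lowest of the KO libraries. The means were 7.23 ± 3.15 in WT and 9.44 ± 1.29 in KO (SD, n = 4 each). A log2 fold change of 0.53 (SE 0.39) did not pass the test (limma adjusted p = 0.947, exact permutation p = 0.257).

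Alpl, tissue-nonspecific alkaline phosphatase, splits pyrophosphate, an inhibitor of mineral growth (chr4:137741733-137796384, minus strand). Its FPKM was 37.7, 26.04, 7.12 and 22.4 in WT1 to WT4 and 32.1, 32.1, 25.6 and 26.8 in KO1 to KO4. All KO libraries fell between WT4 and WT1, and WT3 was again the lowest. The means were 23.3 ± 12.6 in WT and 29.2 ± 3.45 in KO (SD, n = 4 each). On the log2 scale KO exceeded WT by 0.54 (SE 0.45, limma adjusted p = 0.952, exact permutation p = 0.4).

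Bglap and Bglap2 encode osteocalcin, a small protein of mature osteoblasts that binds calcium, and lie beside each other on chromosome 3. The loci given for them overlap (chr3:88377736-88384464 and chr3:88368616-88384433, minus strand), and 56.6% of the 50-base words of Bglap transcripts and 88.2% of those of Bglap2 also occur in another gene, mostly in the other of the pair or in Bglap3. How fragments were shared out between them is not given in the sources used here, so the value of either alone is uncertain. The FPKM of Bglap was 190.4, 74.8, 9.82 and 71.1 in WT1 to WT4 and 110.0, 85.8, 104 and 81.1 in KO1 to KO4. That of Bglap2 was 155.6, 65.1, 9.67 and 55.6 in WT1 to WT4 and 81.7, 83.2, 113 and 59.1 in KO1 to KO4. WT1 and WT3 were the highest and the lowest of the 8 libraries for both genes, 19.4-fold apart for Bglap and 16.1-fold for Bglap2. The Bglap means were 86.5 ± 75.4 in WT and 95.2 ± 13.9 in KO, and the Bglap2 means 71.5 ± 61.0 and 84.3 ± 22.2 (SD, n = 4 each). The log2 fold changes were 0.75 for Bglap (SE 0.76, limma adjusted p = 0.968, exact permutation p = 0.6) and 0.76 for Bglap2 (SE 0.72, limma adjusted p = 0.962, exact permutation p = 0.543). The ratio of Bglap2 to Bglap was 0.782 to 0.985 in WT and 0.729 to 1.09 in KO. Summed with Bglap3, the third gene of the cluster, the FPKM was 348, 143, 23.3 and 129 in WT1 to WT4 and 196, 176, 225 and 145 in KO1 to KO4. WT1 and WT3 were the highest and the lowest library for the sum too.

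Ibsp encodes bone sialoprotein, an acidic protein that can seed mineral crystals (chr5:104299171-104311469, plus strand). Its FPKM was 91.4, 44.9, 6.08 and 46.0 in WT1 to WT4 and 120.3, 138, 83.5 and 53.2 in KO1 to KO4. Every KO library was above WT2, WT3 and WT4, and WT1 lay above KO3 and KO4. The means were 47.1 ± 34.9 in WT and 98.8 ± 37.9 in KO (SD, n = 4 each). Its log2 fold change of 1.49 (SE 0.75) was the largest after Mepe and had a 95% interval from -0.22 to 3.21 (limma adjusted p = 0.947, exact permutation p = 0.0857). Its 3′-UTR holds the first of the seed matches shown above.

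Spp1, osteopontin, is secreted by osteoblasts, osteoclasts and many other cells (chr5:104435118-104441050, plus strand). It had by far the highest level per length of the 10 genes, with an FPKM of 1297, 811, 1072 and 695 in WT1 to WT4 and 1254, 1383, 1577 and 1196 in KO1 to KO4. It was the only one of the 10 for which WT3 was not the lowest library, and WT1 exceeded KO1 and KO4. The means were 969 ± 269.7 in WT and 1353 ± 169 in KO (SD, n = 4 each). Fitted on the log2 scale, KO exceeded WT by 0.52 (SE 0.35, limma adjusted p = 0.947, exact permutation p = 0.0857). The ratio of Spp1 to Bglap was 6.81, 10.8, 109 and 9.77 in WT1 to WT4 and 11.4 to 16.1 in KO, so that WT3 held far more Spp1 for its osteocalcin than any other library. A predicted gene, Gm42793, shares 11.6% of the 50-base words of Spp1.

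Dmp1, dentin matrix protein 1, is made by young and mature osteocytes and restrains Fgf23, the hormone that lowers phosphate (chr5:104202613-104214102, plus strand). Its FPKM was 30.4, 23.1, 9.42 and 23.6 in WT1 to WT4 and 54.1, 50.4, 31.4 and 20.7 in KO1 to KO4. KO1, KO2 and KO3 were above every WT library, and KO4 was below WT1, WT2 and WT4. The means were 21.6 ± 8.79 in WT and 39.1 ± 15.8 in KO (SD, n = 4 each). With a log2 fold change of 0.87 (SE 0.42) and a 95% interval from -0.083 to 1.83, it had the smallest unadjusted limma p of the 10 genes (adjusted p = 0.947, exact permutation p = 0.171). Its 3′-UTR holds the other seed match.

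Phex encodes a peptidase of osteoblasts and osteocytes whose loss causes X-linked hypophosphatemia (chrX:157162075-157415312, minus strand). Its FPKM was 21.0, 11.7, 2.62 and 13.2 in WT1 to WT4 and 20.2, 27.2, 18.7 and 13.9 in KO1 to KO4. Every KO library was above WT2, WT3 and WT4, and only KO2 was above WT1. The means were 12.1 ± 7.56 in WT and 20.0 ± 5.48 in KO (SD, n = 4 each). The fitted log2 fold change was 1.003 (SE 0.57, limma adjusted p = 0.947, exact permutation p = 0.143).

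Mepe, matrix extracellular phosphoglycoprotein, is a late osteocyte protein that inhibits mineralization (chr5:104325329-104338611, plus strand). It varied the most of the 10 genes, with an FPKM of 79.5, 4.50, 0.350 and 4.996 in WT1 to WT4 and 40.1, 34.5, 24.2 and 6.34 in KO1 to KO4. WT1 was above every KO library, while WT2, WT3 and WT4 were below every KO library, and WT1 and WT3 were 227-fold apart. The WT mean was 22.3 ± 38.2 and the KO mean 26.3 ± 14.9 (SD, n = 4 each), and WT1 alone made up most of the WT mean. On the log2 scale, where WT1 weighs less, the fold change was 2.01 (SE 1.37, limma adjusted p = 0.947, exact permutation p = 0.314). The ratio of Mepe to Runx2 was 3.58, 0.285, 0.0742 and 0.308 in WT1 to WT4 and 2.81, 2.01, 1.60 and 0.387 in KO1 to KO4. The late gene thus varied far more than the early factor, and KO4 was closer to WT2 and WT4 than to the other KO libraries in this ratio.

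Dmp1, Ibsp, Mepe and Spp1 belong to the family of small integrin-binding ligand N-linked glycoproteins, which arose by duplication and still lie together. They sit on the plus strand within 238 kb of chromosome 5, at 0, 96.6, 123 and 233 kb from the start of Dmp1 in that order. Their levels varied to unequal degrees. Mepe ranged 227-fold over the 8 libraries and Ibsp 22.7-fold, whereas Dmp1 ranged 5.74-fold and Spp1 2.27-fold. KO4 was the lowest KO library for all 4 genes, and for 7 of the 10 genes in all, against 26.8% of all tested genes.

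Promoters of the 10 genes were searched for ACCACA on either strand (TGTGGT on the other), the core that Runx proteins recognize, because Runx2 is itself among the genes. RefSeq promoter windows, from 250 bases before to 50 after the start (GRCm38.p6), were matched for 8 of the 10 genes, and Bglap2 and Sp7 had no entry. Of the 11 windows of these genes 5 held the letters, or 45.5%, and 5506 of 32851 windows of all genes, or 16.8%. Bglap, Spp1, Dmp1, Mepe and Runx2 each had a window with a match, and the match nearest to 5′ is shown for each in capitals, on the strand of the gene.
Bglap: ccgcaatcacctACCACAgcatcctttggg
Spp1: tttttttttttaACCACAaaaccagaggag
Dmp1: agtcatttgagaACCACAagagctttttag
Mepe: tagcagctttccACCACAaaacatttttag
Runx2: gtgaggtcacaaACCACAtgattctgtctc
The stretches lie at chr3:88384581-88384610 (minus strand), chr5:104434971-104435000, chr5:104202441-104202470, chr5:104325199-104325228 (all plus strand) and chr17:44814690-44814719 (minus strand). The matches begin 132, 128, 164, 118 and 80 bases before the start. Genes with a match include both the widest ranging of the 10, Mepe, and the narrowest, Spp1. The letters alone show no binding.

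Leaving out single libraries changed which of the 10 genes passed the test. Without WT1, 4 genes were called higher in KO by limma, namely Ibsp (log2 fold change 1.99, SE 0.69), Dmp1 (1.08, SE 0.42), Phex (1.38, SE 0.52) and Mepe (3.301, SE 0.94), but 12.1% of all tested genes were then called higher as well, and the adjusted p of these genes was at least 0.148. Without WT3, 0 of the 10 were called, where 3.58% of all tested genes were called higher, and the log2 fold change fell to 0.69 for Ibsp and 0.81 for Mepe and turned to -0.089 for Bglap, -0.0085 for Bglap2 and -0.18 for Runx2. Without KO4, Dmp1 alone was called higher (1.14, SE 0.41), beside 5.17% of all tested genes. With WT1 and WT3 both left out, which was tried after the values had been seen, Ibsp, Spp1, Phex and Mepe were called higher (1.03, 0.84, 0.64 and 2.16), beside 9.17% of all tested genes. For the exact two-sided permutation test over all 8 libraries, 0.0286 is the smallest p that 4 against 4 libraries allow, and none of the 10 genes reached it.

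**Figure D2:**
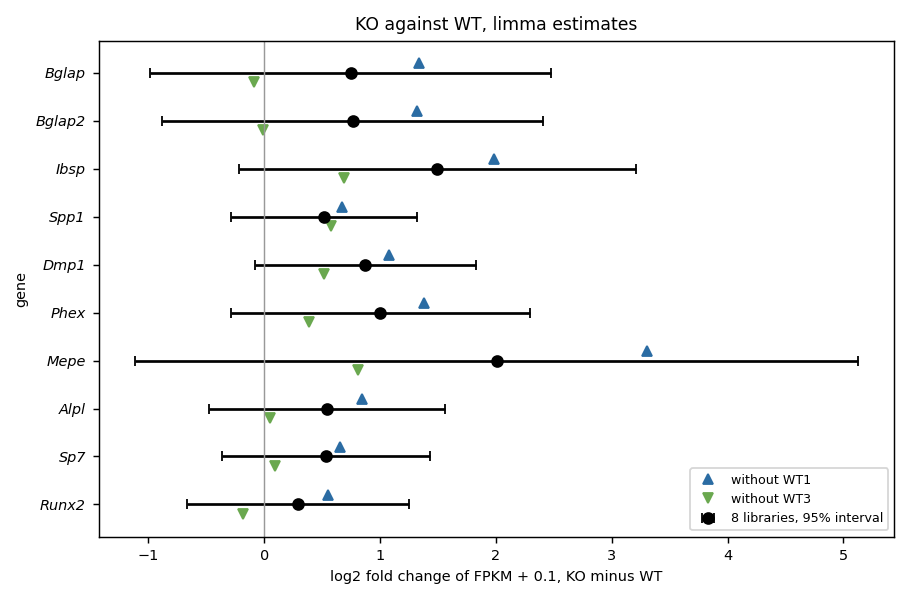
log2 fold change of FPKM + 0.1 in KO against WT for each of the 10 genes, as estimated by limma from 8 libraries (black, bars are 95% intervals), without WT1 (blue) and without WT3 (green). All 10 intervals cross 0, the estimates without WT1 are higher for all 10 genes, and those without WT3 fall to or below 0 for Bglap, Bglap2 and Runx2.

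Other genes of bone were listed in 5 groups of 50 genes in all, of which 48 were expressed highly enough to be tested. Of these, 12 were higher and 1 was lower in KO at an unadjusted p under 0.05, with a median log2 fold change of 0.36, while 4.61% of all tested genes were higher and 0.507% lower, with a median of 0.10. The 12 include Dusp2 and Col4a2, which were listed only as targets of miR-29 and not for a role in bone. No limma adjusted p in these groups was under 0.870. The groups did not overlap for 9 of the 48, all higher in KO, for which the exact permutation p was 0.0286, and every KO library was above every WT library for 3.02% of all tested genes. The groups were drawn up with earlier results of these data known, and their counts describe these libraries only.

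Among 11 genes of the bone matrix, 4 were higher and 1 was lower. Sparc, osteonectin, which binds collagen and mineral, was the clearest, with an FPKM of 335, 310.1, 335 and 313 in WT1 to WT4 and 782, 936, 779 and 764 in KO1 to KO4. The groups stood far apart, and WT1 and WT3 did not differ from WT2 and WT4 as they did for the 10 genes above (log2 fold change 1.33, SE 0.22, limma adjusted p = 0.870). The collagen I chains, the main fibre of bone that skin, tendon and other connective tissue also make, did not overlap between the groups either. Col1a1 had an FPKM of 145, 241, 64.1 and 239 in WT1 to WT4 and 282, 424, 372 and 418 in KO1 to KO4 (log2 fold change 1.28, SE 0.42). Col1a2 had 122, 199.6, 95.2 and 196 in WT1 to WT4 and 262, 391, 333 and 329.7 in KO1 to KO4 (1.16, SE 0.28). WT3 was the lowest library for both chains, as for 9 of the 10 genes, but WT1 was the second lowest. The ratio of Col1a1 to Bglap was accordingly 0.760 in WT1 and 6.53 in WT3, with 3.23 and 3.36 in WT2 and WT4 and 2.56 to 5.15 in KO. Bglap3, which is expressed outside bone more than its neighbours, had an FPKM of 1.75 to 3.83 in WT and 4.36 to 7.58 in KO (1.07, SE 0.29). Its locus lies within the one deposited for Bglap2, and 11.5% of its 50-base words also occur in other genes, Bglap2 and Bglap among them. How fragments were shared out is not known, so its value alone is uncertain too. Cthrc1, a secreted protein of remodelled matrix, was lower, with 2.68 to 5.06 in WT and 2.45 to 2.93 in KO (-0.54, SE 0.22, exact permutation p = 0.0857).

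Of 7 further genes of mineralization, 1 was higher. Phospho1, a phosphatase that frees phosphate inside matrix vesicles, had an FPKM of 4.82, 9.26, 5.59 and 8.19 in WT1 to WT4 and 10.3, 11.0, 13.99 and 11.5 in KO1 to KO4, with no overlap (log2 fold change 0.78, SE 0.23). Enpp1, which makes pyrophosphate, and Smpd3, a sphingomyelinase needed for mineralization, had log2 fold changes of 0.24 (SE 0.16) and 0.40 (SE 0.30), and neither passed the test.

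Of 16 regulators of osteoblasts, 15 were tested and 3 were higher. Bmp2, a ligand that induces bone, had an FPKM of 1.64 to 2.93 in WT and 3.503 to 4.35 in KO, with no overlap (log2 fold change 0.67, SE 0.21). Pth1r, the receptor of parathyroid hormone (0.77, SE 0.32), and Atf4, which drives osteocalcin transcription and the response of many cells to amino acid shortage (0.46, SE 0.19), overlapped between the groups. The untested gene was Msx2, with a mean FPKM of 0.291 in WT and 0.399 in KO.

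Of 7 signals made by osteocytes, 2 were higher. Sost, sclerostin, which blocks Wnt signals and is nearly particular to osteocytes, had an FPKM of 15.7, 8.09, 0.128 and 10.3 in WT1 to WT4 and 33.1, 50.6, 35.8 and 13.0 in KO1 to KO4. Its groups overlapped only through WT1 and KO4, and WT3 held almost none (log2 fold change 2.84, SE 1.23, exact permutation p = 0.0571). Without WT3 the log2 fold change was 1.44. Tnfsf11, RANKL, the cytokine that makes osteoclasts form, had 0.540, 0.457, 0.0786 and 0.423 in WT1 to WT4 and 0.774 to 1.01 in KO (1.22, SE 0.44). The log2 fold change of Fgf23 was 1.01 (SE 0.59), and it did not pass the test.

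Of 12 genes listed as known or proposed targets of miR-29 in osteoblasts or other matrix-producing cells, 11 were tested and 4 were higher, 2 of which, Sparc and Col1a1, are also in the matrix group. The others were Dusp2, a phosphatase of MAP kinases, with an FPKM of 0.424 to 1.18 in WT and 2.02 to 6.39 in KO (log2 fold change 1.84, SE 0.42), and Col4a2, a chain of the basement membrane collagen IV, with 4.52 to 12.9 in WT and 21.6 to 24.4 in KO (1.29, SE 0.31). All 4 had every KO library above every WT library. The seed match was present in the 3′-UTR of 8 of the 11 tested genes, or 72.7%, and Sparc had none in its longest annotated 3′-UTR. These genes were listed because they are known or proposed targets, so the share is not a separate result. Sites of Col1a1 and Dusp2 are shown for comparison with those of Ibsp and Dmp1, with the match in capitals.
Col1a1: tgggaaggaatttcTGGTGCTa
Dusp2: cggctgctctgataTGGTGCTc
They lie at chr11:94952524-94952545 and chr2:127337921-127337942 (plus strand). Genes with the match thus include Col1a1 and Dusp2, whose groups did not overlap, and Ibsp and Dmp1, whose groups did.

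**Figure D3:**
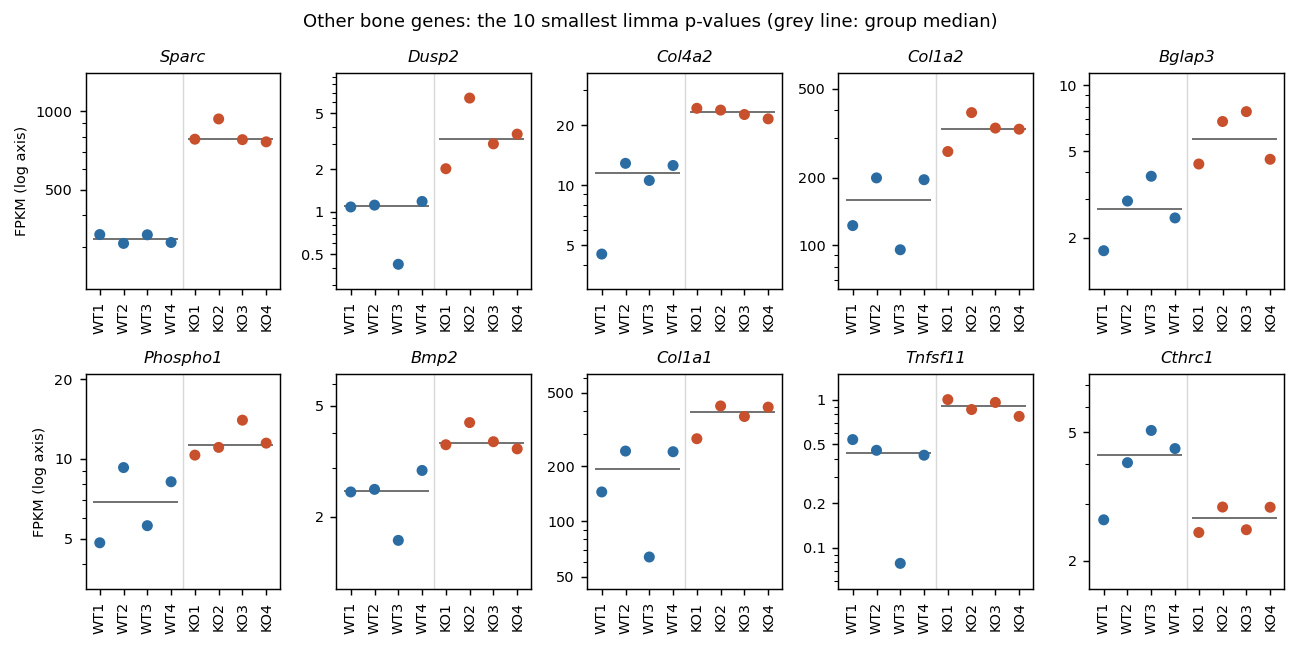
FPKM (log axis) of the 10 other bone genes with the smallest limma p in the 4 WT libraries (blue) and the 4 KO libraries (red), with a grey line at each group's median. Every gene shown but Cthrc1 has all KO points above all WT points, and WT3 is far below the other WT points for Dusp2 and Tnfsf11.

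The calls of 8 of the 13 bone genes did not rest on a single library. Sparc, Col1a1, Col1a2, Bglap3, Phospho1, Bmp2, Dusp2 and Col4a2 kept an unadjusted limma p under 0.05 with any single library left out. Cthrc1 lost it in 7 of these 8 fits, all but that without WT1. Atf4 lost it without KO1, KO2, KO3, WT1 or WT3, Pth1r without KO2, KO3, KO4, WT1 or WT3, Sost without KO1, KO2, KO3 or WT2, and Tnfsf11 without KO1 or KO3. Other settings ended some of these calls too. Sost lost it with the replicate number as a block, with median-ratio scaling, without the filter and without the trend, Atf4 with the block, with quantile normalization and without the trend, and Pth1r without the trend. Tnfsf11 lost it with quantile normalization and with replicates 1 to 3 alone, and Cthrc1 without the filter and with replicates 1 to 3 alone. With WT1 and WT3 both left out, Atf4 and Pth1r lost it. In the fits in which these 5 genes lost it, the direction was unchanged.

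The order of WT1 and WT3 seen in the 10 genes was shared by the summed markers of blood-forming marrow and of osteoclasts, which resorb bone. The mean log2 level of the 10 genes was 6.02, 4.96, 2.93 and 4.93 in WT1 to WT4 and 5.76, 5.84, 5.62 and 5.12 in KO1 to KO4. The summed FPKM of 8 neutrophil lineage markers was 9443, 660, 51.7 and 906 in WT1 to WT4 and 1669 to 5072 in KO. That of 8 erythroid markers was 7481, 2383, 449.5 and 3602 in WT1 to WT4 and 4905 to 12105 in KO. WT1 was the highest and WT3 the lowest WT library in all these sums. The same order of these 2 libraries was found for the sums of 10 osteoclast markers (24.2 to 347 in WT and 191 to 349 in KO) and 6 B lineage markers (1.63 to 37.7 in WT and 22.3 to 70.9 in KO). Within the B lineage list, WT1 was not the highest WT library for Vpreb1, Igll1 and Rag1. For these genes every KO library was above every WT library, a pattern shown by 3.02% of all tested genes. At an unadjusted limma p under 0.05, 4 of 6 B lineage, 2 of 8 erythroid, 1 of 8 tested osteoclast (Ctsk) and 0 of 8 neutrophil markers were higher in KO and none was lower, where 4.61% of all tested genes were higher. The part of marrow and osteoclast content in the levels of the 10 genes was not tested.

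The summed markers of hair cells and of neurons and Schwann cells ran the other way in WT1 and WT3. The summed FPKM of 8 hair cell markers was 30.5 in WT1 and 48.7 in WT3, the lowest and the highest of the WT libraries, and 27.1 to 39.4 in KO. For 8 neuron and Schwann cell markers it was 539.6 in WT1, 1259 in WT2, 1846 in WT3 and 1396 in WT4, and 1104 to 1342 in KO. Single markers of these lists departed from the sums. WT3 was not the highest WT library for Myo7a and Prph, and WT1 was not the lowest for Ocm. For 10 markers of the cochlear epithelium and lateral wall the sum was 1869 in WT1, 1713 in WT2, 2540 in WT3 and 1619 in WT4, and 1748 to 2209 in KO. WT3 was again the highest WT library for the sum but WT1 was not the lowest. Coch made up most of this sum, with an FPKM of 1565, 1308, 1927 and 1231 in WT1 to WT4. WT1 was the lowest WT library for Otog, Tecta, Kcne1, Kcnq1, Gjb2, Gjb6 and Slc26a4, but not for Coch, Otos and Epyc. None of the markers of these 3 lists passed the test in either direction. Of 9 chondrocyte markers, Matn3, Matn1 and Col10a1 were under 1 FPKM in every library and 0 of the 6 tested passed, with a sum of 31.4 to 134 in WT, lowest in WT1, and 89.2 to 155 in KO. Fibroblast markers summed to 268 to 448 in WT and 331 to 401 in KO, and 1 of 6, Col3a1, was higher in KO. Adipocyte markers summed to 0.0502 to 11.5 in WT and 2.12 to 22.0 in KO, and 0 of 3 passed. Skeletal muscle markers summed to 0.592 to 9.99 in WT and 2.98 to 322 in KO, the highest in KO3, and 1 of 7 tested, Mylpf, was higher in KO. For both the adipocyte and the muscle sum, WT3 was the lowest of the 8 libraries, as it was for the marrow and osteoclast sums. The highest WT library for both was WT4 and not WT1. The part of this tissue balance in the levels of the 10 genes was not tested either.

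**Figure D4:**
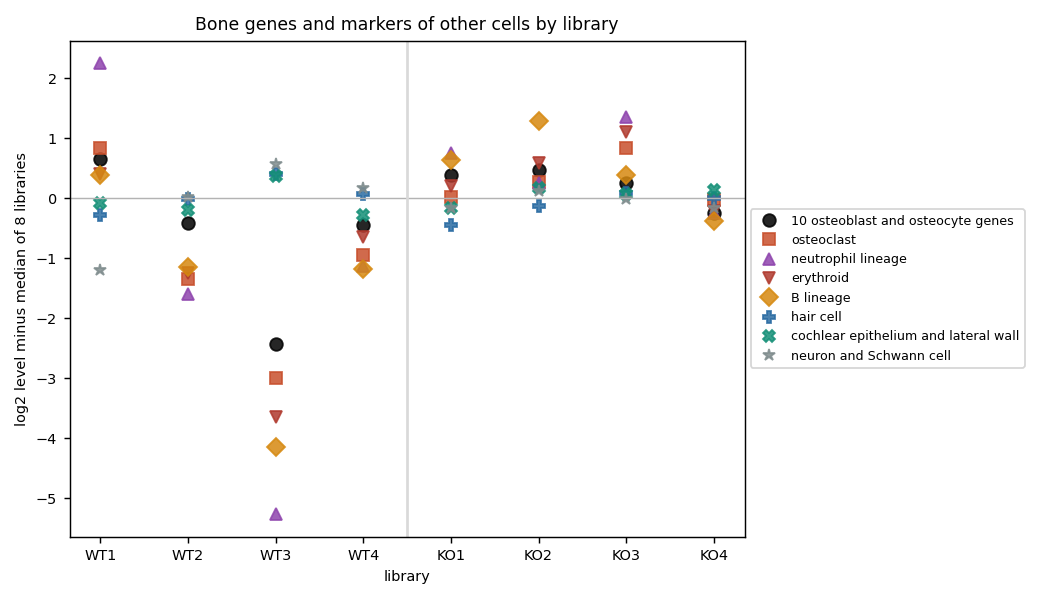
Mean log2(FPKM + 0.1) of the 10 bone genes and log2 of the summed FPKM of marker lists in each library, each relative to its own median over the 8 libraries. The bone genes, osteoclast, neutrophil, erythroid and B lineage markers are all lowest in WT3, where hair cell, cochlear epithelium and neuron markers lie above their medians.

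The 10 genes did not all follow each other to the same degree. Over the 8 libraries, Pearson's correlation of each gene's log2 level with the mean of the other 9 was 0.98 for Phex and Ibsp, 0.97 for Alpl, 0.96 for Bglap2 and Bglap, 0.94 for Mepe, 0.91 for Runx2, 0.88 for Dmp1 and 0.85 for Sp7, but 0.37 for Spp1. Outside the 10, the 5 tested genes whose log2 levels were most like the mean of the 10 were Ccne2 (0.999), which encodes a cyclin of the entry into S phase, Orc1 (0.997), a subunit of the complex that marks replication origins, Hmmr (0.997) and the mitotic genes Bub1 (0.996) and Kif11 (0.995). Ccne2 had an FPKM of 7.28, 3.71, 0.913 and 3.51 in WT1 to WT4 and 5.96, 6.50, 5.90 and 4.18 in KO1 to KO4. All these points share the same 8 libraries, and WT3 and WT1 span most of the range, so the coefficients are given as a description.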

How the data were processed

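Total RNA from WT and miR-29a KO cochleae was sequenced in 8 strand-specific libraries made after ribosomal RNA removal. The authors aligned the read pairs by Hisat2. They deposited 1 FPKM value for each gene in each library, and the tool and annotation behind the FPKM are not given in the sources used here. The processing notes name mm9, but the deposited coordinates match those of GENCODE mouse release 21 on GRCm38 for 7 of the 10 genes (not Bglap, Bglap2 and Runx2, whose positions are printed as deposited), and that build was used. Date-like symbols of 27 genes were restored from their identifiers, and 0 columns of per-sample values were left unused.

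Genes whose FPKM averaged 0.5 or more were kept, and their log2(FPKM + 0.1) was fitted with limma 3.58.1 in R 4.3.3, with a mean-variance trend and genotype as the only factor, over all 8 libraries. The authors used a count test, and no counts were used here. A call is an unadjusted two-sided p under 0.05, as in the study, and Benjamini-Hochberg values cover all tested genes. Fold changes are on the log2(FPKM + 0.1) scale, which understates changes of low genes. In simulated data with 14990 genes for KO against WT, 185 of 200 genes changed by 2 on the log2 scale had an unadjusted p under 0.05, and 142 an adjusted one. The simulation drew each gene independently and with the same SD in both groups. In the libraries the SD was larger in WT for 77.7% of tested genes, so these counts need not hold for them. The 10 genes had a median log2 fold change of 0.75, and Mepe, at 2.01 with an SE of 1.37, was not called. Detection of smaller log2 fold changes was not tested.

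Named were all 10 genes, the called genes of each bone group or, if fewer than 3, those with the 3 smallest p, and the 5 genes most like the mean of the 10. Ctsk, Col3a1, Mylpf and markers near 0 were named after their values were seen. So were the single markers of the B lineage, hair cells, neurons and Schwann cells, and the cochlear epithelium and lateral wall. The 10 genes and all lists were chosen with earlier results of these data known. Alternatives were a pseudocount of 1, scaling by median ratios or quantiles, no filter on low values or a mean FPKM of 1 as the minimum, no trend, the replicate number as a block, replicates 1 to 3 only, an exact permutation test and each library left out. FPKM give no depth, so counting precision is unknown.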

Additional observations from a re-analysis of the deposited data

Results flagged for a closer look

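In 5 of the 46 groups of 4 libraries examined, drawn from the 10 genes and the 13 called bone genes, the most extreme library lay further from the other 3 than Dixon's 95% limit for the share of the group's log2 range. Chance alone marks about 1 in 20 such groups. In WT3, the FPKM was 2.52 for Sp7, 0.128 for Sost, 0.0786 for Tnfsf11 and 0.424 for Dusp2, each the lowest of WT. In KO2, Sparc had an FPKM of 936, the highest of KO. Without WT3, the log2 fold change was 0.091 for Sp7, 1.44 for Sost, 0.80 for Tnfsf11 and 1.53 for Dusp2, and the last 3 kept an unadjusted limma p under 0.05.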

How the results depend on the processing

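Against 0 of the 10 genes and 767 of all genes called, of which 691 were higher in KO, a replicate block called 1 of the 10 (Dmp1), replicates 1 to 3 alone 1 (Dmp1) and a fit without trend 1 (Spp1). With WT1 and WT3 both left out, an alternative chosen after seeing the data, 4 of the 10 and 2430 genes were called, and Runx2 turned to -0.026. With 1 library left out, 0 to 4 of the 10, 347 to 2922 of all genes and 8 to 17 of the bone genes were called, the lowest counts of all genes and bone genes without KO3 and the highest without WT1, and the median log2 fold change of the 10 was 0.24 to 1.199. All genes called fell to 377 without KO2. The log2 fold change of Bglap was then -0.089 to 1.33, that of Bglap2 -0.0085 to 1.32 and that of Runx2 -0.18 to 0.55, each below 0 only without WT3. The causes were not tested.

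Scaling moved the balance of all genes. Median-ratio scaling called 765 genes, 402 of them higher, and quantile normalization 925, 378 higher, with a median over all genes of 0.0043 and -0.037 against 0.10 unscaled. The median of the 10 genes was then 0.65 and 0.64, and all 10 kept a positive log2 fold change under both. No other alternative changed the count of the 10 genes. No filter called 976 genes and 3 at an adjusted p under 0.05.

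A pairing of WT and KO libraries with the same number was not borne out as a whole. The correlations of their deviations were 0.42, -0.24, -0.17 and 0.21. Of the KO libraries, KO1 was the most like WT1 and KO4 the most like WT4, but KO2 and KO3 were not the most like WT2 and WT3. The relative depth was 1.15 in WT1 and 1.17 in KO1, and at most 1.04 in the other libraries. The replicate block called 838 of all genes. FPKM carry no counts, so no floor can be set for Mepe, Sost or Tnfsf11 in WT3.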
